A study of Sus scrofa with 17 samples.

Results

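The genes described here are 8 genes of cholesterol synthesis and sterol sensing, measured by RNA-seq in the longissimus muscle of weaned piglets. HMGCS1, IDI1, FDFT1, SQLE, LSS and DHCR7 encode enzymes of the pathway, and SREBF2 and INSIG1 encode parts of the machinery that senses sterols. They were chosen by symbol from the 31908 Ensembl genes of the count table, and all 8 were among the 14203 genes tested.

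The piglets were male Large White × Duroc crosses, aged 28 days at the start, that had 5 days of adaptation and received the diets for 2 weeks, housed individually and pair-fed. The control diet, of wheat, maize and soybean meal, was sampled in 6 piglets. The UL diet, in which 7% of the feed was the green seaweed Ulva lactuca, was sampled in 6 piglets, and the ULU diet, which added 0.01% of the recombinant enzyme ulvan lyase to it, in 5. Ulvan lyase cuts ulvan, a cell wall polysaccharide of the seaweed. Each library came from 1 piglet and is named by its diet and piglet number.

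Cells make cholesterol from acetyl-CoA through mevalonate, isoprenoid units, squalene and lanosterol. When sterols in the endoplasmic reticulum run low, the transcription factor SREBP2, the product of SREBF2, is carried to the Golgi and cut, and its released part activates most genes of the pathway. When sterols are plentiful, INSIG1 holds the SREBP2 escort protein SCAP in the endoplasmic reticulum, and INSIG1 is itself a target of SREBP2. Skeletal muscle also makes the isoprenoid precursors of ubiquinone by this pathway.

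Libraries held 16137365 to 26546810 counted reads, and the medians were 17240387 (control), 18398491.5 (UL) and 22320520 (ULU). Between pairs of libraries, the Spearman correlation of log2 CPM was between 0.941 and 0.982 over 136 pairs. Mitochondrial genes took 14.05% to 15.9% of the counts in control, 8.64% to 14.8% in UL and 8.002% to 11.6% in ULU, so that control and ULU did not overlap. Of 10 skeletal muscle markers, 6 could be matched by name, and their summed level was between 119598 and 306883 CPM over all libraries. In such bulk samples, fewer cells of a type and less RNA per cell cannot be told apart.

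Levels are given in CPM, reads per 1e6 counted reads after the library totals had been scaled with TMM factors. To compare levels between genes, CPM was divided by the exonic length in kb. IDI1, which encodes the isomerase that balances both isoprenoid building blocks, had the highest level per length, at 33.7 CPM per kb ± 6.35 (SD, n = 17). HMGCS1, the synthase of the mevalonate branch, followed at 12.96 CPM per kb, and FDFT1, the squalene synthase gene, at 5.79 CPM per kb. In all 17 libraries, IDI1 was above HMGCS1, HMGCS1 above FDFT1 and FDFT1 above SQLE. The other genes lay close together, at 2.72 CPM per kb for SQLE, 2.52 for INSIG1, 2.16 for SREBF2, 1.77 for DHCR7 and 1.41 for LSS. Neighbours in this part of the order did not separate, the higher being above the next in between 11 and 13 of 17 libraries. The reads behind the values were fewest for DHCR7, with 30 to 122 per library, and most for HMGCS1, with 786 to 2405. As gene models of this annotation differ in completeness, the order per length depends on them. The FDFT1 model shares 3513 of its 8360 exonic bases with another gene, CTSB. Its level per length, and so its place in the order, is therefore not that of FDFT1 alone.

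INSIG1 was the only one of the 8 genes that passed the edgeR test in any comparison. Its level rose 1.96-fold in ULU vs control, and the mean of both seaweed diets rose 1.83-fold. The gene (ENSSSCG00000016420) lies on the minus strand of chromosome 18, at chr18:2885611-2898767 of the assembly Sscrofa11.1. In control, INSIG1 was between 10.7 and 19.5 CPM, with a median of 12.3 CPM. In UL it was between 16.4 and 37.9 CPM, with a median of 20.8 CPM. In ULU the values were 34.8, 21.3, 38.6, 19.2 and 21.7 CPM for piglets 40 to 44. All seaweed libraries lay above the control median, and 4 of 6 UL and 4 of 5 ULU libraries lay above the highest control library. The ranges nevertheless overlapped, since control piglet 21, at 19.5 CPM, lay above UL piglets 27 and 32 and ULU piglet 43.

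The log2(fold change) of INSIG1 was 0.97 ± 0.23 (SE) in ULU vs control, with an edgeR adjusted p = 0.0337 over all genes tested. In the same test, 2.98% of all genes passed, and 1.99% passed with a higher level in ULU. Averaged over both seaweed diets the log2(fold change) was 0.87 ± 0.20 (SE), with an edgeR adjusted p = 0.0400, where 1.46% of all genes passed and 0.796% passed with a higher level. INSIG1 stayed below the log2(fold change) of 1 that a differentially expressed gene (DEG) had to reach, and DEGs made up 0.415% of the genes in ULU vs control and 0.141% in the mean of both diets. In UL vs control its log2(fold change) was 0.77 ± 0.23 (SE), which did not pass (edgeR adjusted p = 0.213). The ULU vs UL difference was 0.20 ± 0.23 (SE), less than its error (edgeR adjusted p = 0.832).

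Both calls depended on single libraries. In ULU vs control, INSIG1 passed in 12 of 17 fits that left out 1 library each. It was lost without control piglets 22, 23 or 24 (edgeR adjusted p = 0.0804, 0.0707 and 0.0671) and without ULU piglets 40 or 42 (0.0862 and 0.0684), while the log2(fold change) stayed between 0.81 and 1.09. It reached the size of a DEG in the 5 fits without control piglets 21 or 26 or ULU piglets 41, 43 or 44. It was also lost when only the control and ULU libraries were fitted, with a log2(fold change) of 0.96 (edgeR adjusted p = 0.0574). Other scaling and filters kept this call. DESeq2 on the compared diets and on all libraries both called INSIG1 higher in ULU vs control, among 543 and 651 genes higher over all genes. In the mean of both diets, the call was also kept with other scaling and filters. DESeq2 on all libraries called INSIG1 higher in that mean, among 378 genes higher over all genes. Across fits that left out 1 library each, INSIG1 passed in that mean in 8 of 17, with a log2(fold change) between 0.78 and 0.99. There it was lost without control piglets 22, 23, 24 or 26 (edgeR adjusted p = 0.110, 0.101, 0.0910 and 0.0527), UL piglets 28, 29 or 31 (0.0517, 0.0632 and 0.0537) or ULU piglets 40 or 42 (0.0697 and 0.0530). The mitochondrial share of the counts and the muscle marker level also differed between control and ULU, and their part in the INSIG1 difference was not tested. Summed skeletal muscle markers were between 119598 and 186485 CPM in control and between 166352 and 306883 CPM in ULU. Among these markers, the fast-fibre genes TNNT3 and MYH2 rose in ULU vs control, by 0.66 and 0.53 on the log2 scale (edgeR adjusted p = 0.0280 and 0.0397). TNNT3 also rose in the mean of both diets, by 0.54 on the log2 scale (edgeR adjusted p = 0.0420). These 3 calls were also lost under some alternatives. Both of these DESeq2 fits called TNNT3, MYH2 and ACTA1 higher in ULU vs control, and the fit on all libraries called CKM too. DESeq2 on all libraries also called TNNT3, MYH2 and ACTA1 higher in the mean of both diets. All 6 muscle markers tested had a positive log2(fold change) in ULU vs control, with a median of 0.54, against 47.0% of all genes.

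**Figure D1:**
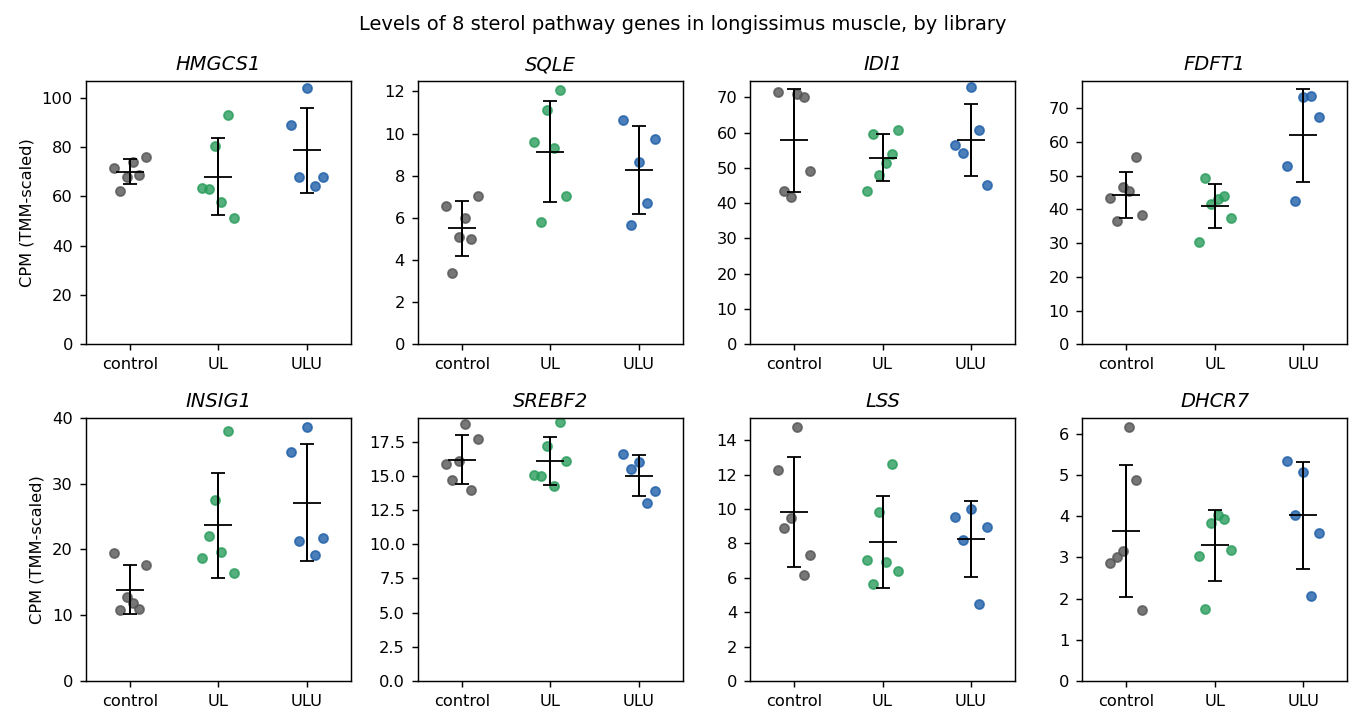
Level of each of the 8 genes in every library, in TMM-scaled CPM on axes that start at 0, for 6 control, 6 UL and 5 ULU piglets. Points are libraries and bars the mean ± SD. INSIG1 lies above the control median of 12.3 CPM in all seaweed libraries, and in every panel the diets overlap.

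SQLE, the squalene epoxidase gene, had the next largest differences from control and did not pass the test. The gene (ENSSSCG00000005970, minus strand) lies at chr4:14669791-14700126. In control it was between 3.39 and 7.02 CPM, with a median of 5.55 CPM, and in UL between 5.78 and 12.1 CPM, with a median of 9.44 CPM. The ULU values were 10.7, 5.65, 8.67, 6.70 and 9.73 CPM for piglets 40 to 44. All seaweed libraries lay above the control median, as for INSIG1, and 4 of 6 UL and 3 of 5 ULU libraries lay above the highest control library. Its log2(fold change) from control was 0.73 ± 0.21 (SE) for UL and 0.59 ± 0.22 (SE) for ULU (edgeR adjusted p = 0.199 and 0.138). For the mean of both diets it was 0.66 ± 0.19 (SE), with an edgeR adjusted p = 0.0829, and DESeq2 on all libraries gave 0.67 with an adjusted p = 0.0182. That DESeq2 fit called 378 genes higher and 283 lower over all genes. With 72 to 250 reads per library, SQLE was among the less deeply counted of the 8 genes.

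FDFT1, which encodes the enzyme that joins farnesyl units to squalene, had its highest values in ULU, and no difference passed in edgeR. In control it was between 36.7 and 55.7 CPM and in UL between 30.4 and 49.4 CPM, with medians of 44.3 and 42.5 CPM. In ULU piglets 40 to 44 the values were 53.0, 42.6, 73.5, 73.8 and 67.5 CPM. The last 3 of these piglets lay above all control libraries, and 4 of the 5 lay above all UL libraries. On the log2 scale, FDFT1 differed by 0.48 ± 0.15 (SE) in ULU vs control and 0.60 ± 0.15 (SE) in ULU vs UL (edgeR adjusted p = 0.0822 and 0.176). In UL vs control it was -0.11 ± 0.15 (SE). The ULU vs control difference passed without control piglet 25 (edgeR adjusted p = 0.0395) or ULU piglet 41 (0.0452). DESeq2 on all libraries also called it, in ULU vs control (log2(fold change) 0.49, adjusted p = 0.0382) and in ULU vs UL (0.61, adjusted p = 0.0175). Over all genes, that fit called 651 higher and 385 lower in ULU vs control, and 136 higher and 29 lower in ULU vs UL.

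The reads of FDFT1 cannot be given to that gene alone. Its Ensembl model (ENSSSCG00000026044, plus strand) spans chr14:14967273-15104179, where RefSeq places FDFT1 and the cathepsin B gene CTSB. RefSeq also places LOC100623855, LOC102158040, LOC110256701 and LOC106508068 there, whose part in the reads was not tested. Of 3 overlapping Ensembl genes, only CTSB shares exonic bases with the model. The model shares 3513 of its 8360 exonic bases with CTSB on the minus strand, and the header of the counts names no strand option. The control mean of CTSB was 86.5 CPM ± 21.2 (SD, n = 6), the UL mean 85.4 CPM ± 22.6 (SD, n = 6) and the ULU mean 86.2 CPM ± 46.0 (SD, n = 5). Across the 17 libraries, deviations of FDFT1 and CTSB from their diet means had a correlation of 0.0649. Of the other members, IDI1 shares 55 exonic bases with WDR37 on the opposite strand, and no other shares any. At the position of IDI1, RefSeq places LOC100625049 and no gene with the symbol IDI1. No RefSeq symbol was found at the position of LSS. HMGCS1, SQLE, INSIG1, SREBF2 and DHCR7 have the same symbol in RefSeq.

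The remaining enzymes showed no difference that passed in any comparison. HMGCS1 (ENSSSCG00000016872, chr16:27936217-27957194) makes HMG-CoA, the precursor of mevalonate. The control mean was 70.1 CPM ± 4.99 (SD, n = 6), against 68.1 CPM ± 15.6 (SD, n = 6) for UL and 78.7 CPM ± 17.3 (SD, n = 5) for ULU. Its spread was narrow in control, from 62.1 to 76.2 CPM, and wider in UL, from 51.1 to 92.9 CPM. In ULU, piglets 40 and 42 lay at 89.1 and 104.2 CPM, and the other 3 between 64.2 and 68.1 CPM. Against control, the log2(fold change) of UL was -0.04 ± 0.14 (SE) and that of ULU 0.17 ± 0.15 (SE) (edgeR adjusted p = 0.950 and 0.587).

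IDI1 (ENSSSCG00000029066, chr10:68534796-68539279) averaged 57.8 CPM ± 14.5 (SD, n = 6) in control piglets, 52.9 CPM ± 6.66 (SD, n = 6) on UL and 57.9 CPM ± 10.2 (SD, n = 5) on ULU. The control libraries of this gene fell apart, with piglets 21, 24 and 25 between 70.1 and 71.4 CPM and piglets 22, 23 and 26 between 41.7 and 49.0 CPM. Against control, its log2(fold change) was -0.13 ± 0.15 (SE) for UL and 0.0033 ± 0.16 (SE) for ULU.

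LSS, the lanosterol synthase gene (ENSSSCG00000021418), lies on an unplaced scaffold. It averaged 9.81 CPM ± 3.21 (SD, n = 6) in control piglets, 8.07 CPM ± 2.65 (SD, n = 6) on UL and 8.23 CPM ± 2.20 (SD, n = 5) on ULU. Its differences from control, -0.28 ± 0.24 (SE) for UL and -0.25 ± 0.25 (SE) for ULU on the log2 scale, were about the size of their errors (edgeR adjusted p = 0.729 and 0.631). DHCR7, whose product reduces the last precursor to cholesterol (ENSSSCG00000021181, chr2:2377416-2391448), was the least abundant by counts. It averaged 3.63 CPM ± 1.60 (SD, n = 6) in control piglets, 3.29 CPM ± 0.864 (SD, n = 6) on UL and 4.02 CPM ± 1.30 (SD, n = 5) on ULU. Its log2(fold change) from control was -0.14 ± 0.29 (SE) for UL and 0.15 ± 0.30 (SE) for ULU, the largest errors among the 8 genes.

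SREBF2 (ENSSSCG00000026092, chr5:6719487-6784672), the gene of the transcription factor, varied little between piglets, with a coefficient of variation of 9.99% to 11.2% within diets. Among the 8 genes only HMGCS1 in control varied less, with 7.12%. The median was 15.96 CPM for control, 15.6 CPM for UL and 15.5 CPM for ULU. Against control, its log2(fold change) was -0.0081 ± 0.11 (SE) for UL and -0.11 ± 0.11 (SE) for ULU (edgeR adjusted p = 0.987 and 0.646). The activity of SREBP2 is set by cutting of the protein, which these counts do not measure.

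**Figure D2:**
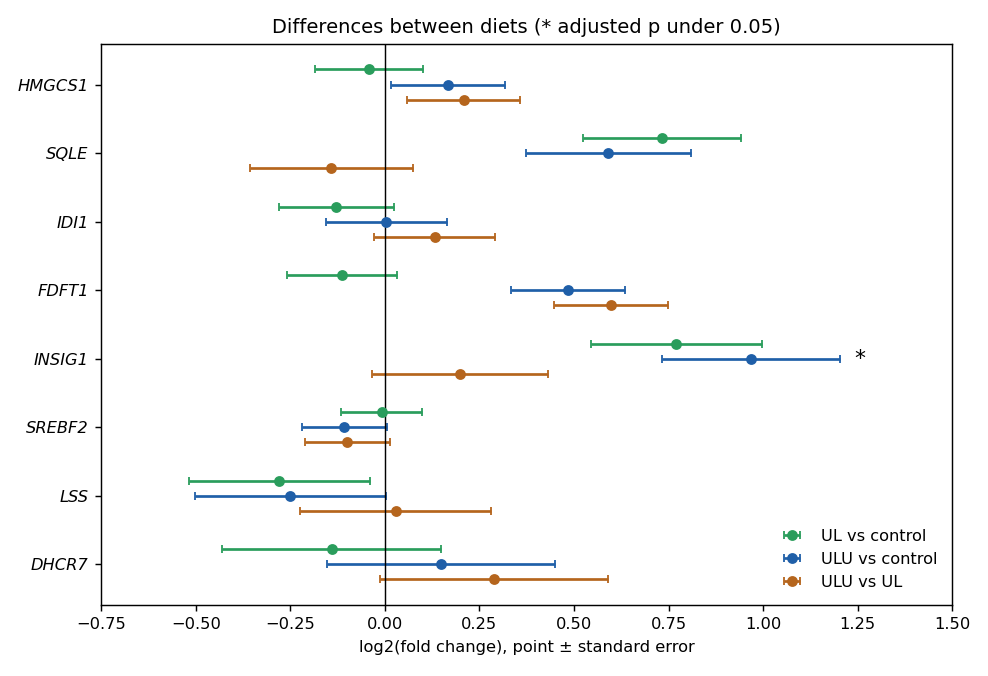
Log2(fold change) of the 8 genes in 3 comparisons of diets, with the standard error. The asterisk marks the only value that passed, INSIG1 in ULU vs control at 0.97.

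Counted together, 1 of the 8 genes passed in ULU vs control and in the mean of both seaweed diets. Of all genes, 2.98% and 1.46% passed in these comparisons. There, an edgeR unadjusted p under 0.05 was reached by 3 and 2 of the 8, against 18.9% and 17.1% of all genes. None of the 8 was a DEG in any comparison. In UL vs control 0 of 8 passed in edgeR, where 2 had an unadjusted p under 0.05, INSIG1 and SQLE. In that comparison 0% of all genes passed, with or without the limit on size. An unadjusted p under 0.05 was reached by 1541 of all genes (10.8%). DESeq2 on the compared diets called 81 genes higher and 68 lower. DESeq2 on the compared diets called INSIG1 in UL vs control (log2(fold change) 0.77, adjusted p = 0.0411), and DESeq2 on all libraries called none of the 8. In ULU vs UL 0 of 8 passed in edgeR and 1 had an unadjusted p under 0.05, FDFT1, which both DESeq2 fits called. Of all genes, 10.8% had an unadjusted p under 0.05 in that comparison, 0.0352% passed and 0.0141% were DEGs. UL vs control and ULU vs control share their control libraries, so like values in both are not separate observations.

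Of 20 sterol synthesis enzymes listed, 19 had a name in the table and were tested, the 6 described above included. In edgeR none rose or fell in any comparison. In ULU vs control 15 of 19 had a positive log2(fold change), against 47.0% of all genes, and the median was 0.15 against -0.03 for all genes. In UL vs control 7 of 19 were positive and the median was -0.04. An unadjusted p under 0.05 was reached by 1, 4, 1 and 2 of the 19 in UL vs control, ULU vs control, ULU vs UL and the mean of both diets, against 10.8%, 18.9%, 10.8% and 17.1% of all genes. In ULU vs control the 4 were MVD, FDFT1 and SQLE, with a positive log2(fold change), and HSD17B7, a ketosteroid reductase gene, at -0.54 (edgeR adjusted p = 0.217). MVD, the mevalonate diphosphate decarboxylase gene, had the smallest p of the list in ULU vs control, at a log2(fold change) of 0.55 ± 0.17 (SE) (edgeR adjusted p = 0.0792). DESeq2 on the compared diets and on all libraries both called MVD in ULU vs control, where they called 543 and 651 genes higher over all genes.

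In the list of sterol sensing and SREBP processing, 10 of 12 genes were tested, and INSIG1 was the only one that passed in any comparison. An unadjusted p under 0.05 was reached by 3, 1, 2 and 1 of the 10 in the same order of comparisons. Of all genes, 10.8%, 18.9%, 10.8% and 17.1% did so. INSIG2, the second INSIG gene, had a log2(fold change) of -0.25 ± 0.11 (SE) in UL vs control and -0.03 ± 0.11 (SE) in ULU vs control (edgeR adjusted p = 0.407 and 0.909). SCAP had values of -0.13 ± 0.14 (SE) and 0.17 ± 0.15 (SE). MBTPS1, the gene of the site 1 protease that cuts SREBP in the Golgi, had the smallest p of this list in ULU vs UL. Its log2(fold change) there was -0.69 ± 0.21 (SE), which did not pass (edgeR adjusted p = 0.252). In UL vs control it was 0.48 ± 0.20 (SE) (edgeR adjusted p = 0.390).

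In the list of lipoprotein uptake and cholesterol transport, 12 of 13 genes were tested, and none passed in edgeR or DESeq2. An unadjusted p under 0.05 was reached by 0, 0, 1 and 1 of the 12 in the same order of comparisons, against the same 10.8%, 18.9%, 10.8% and 17.1% of all genes. The smallest p of the list was that of NCEH1, which encodes a cholesteryl ester hydrolase, in ULU vs UL, at a log2(fold change) of 0.49 ± 0.21 (SE) (edgeR adjusted p = 0.407). Against control, the median over the list was -0.06 for UL and -0.11 for ULU.

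The lists of fatty acid synthesis and of cholesterol efflux held no gene that passed in edgeR, and their medians were below 0. Of 12 genes of fatty acid synthesis and SREBP-1 targets, none passed in edgeR or DESeq2, and the median log2(fold change) from control was -0.36 for UL and -0.62 for ULU. An unadjusted p under 0.05 was reached by 1, 5, 1 and 5 of the 12 in the same order of comparisons, where 10.8%, 18.9%, 10.8% and 17.1% of all genes did so. ME1, the malic enzyme gene that supplies NADPH, had the smallest p of the list, with a log2(fold change) of -1.30 ± 0.41 (SE) in the mean of both diets (edgeR adjusted p = 0.111). Of 8 genes of cholesterol efflux and LXR targets, 6 were tested and none passed in edgeR, with unadjusted p under 0.05 for 2, 2, 0 and 2 beside these shares of all genes. NR1H2, which encodes the sterol receptor LXR beta, had the smallest p, at 0.30 ± 0.10 (SE) in the mean of both diets (edgeR adjusted p = 0.118). DESeq2 on all libraries called it there, with 378 genes higher and 283 lower over all genes.

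Markers of other cell types were measured beside these lists. Summed over 6 adipocyte markers, the level was between 204 and 988 CPM in control, with a median of 343 CPM, and between 160 and 354 CPM in ULU, with a median of 235 CPM. All 5 adipocyte markers tested had a negative log2(fold change) against control on either seaweed diet, with a median of -0.68 for UL and -1.10 for ULU. None passed in edgeR or DESeq2, and their part in the values of the pathway lists was not tested. An edgeR unadjusted p under 0.05 was reached by 0 of the 5 for UL, 1 for ULU and 3 in the mean of both diets. Of all genes, 10.8%, 18.9% and 17.1% did so. No marker of endothelial cells, leukocytes, fibroblasts, satellite cells, erythroid cells or Schwann cells passed in edgeR in any comparison. Of these lists, between 0 and 2 genes had an unadjusted p under 0.05 in a comparison, against 10.8% to 18.9% of all genes. In ULU vs control, all 5 leukocyte and all 5 fibroblast markers tested had a negative log2(fold change), with medians of -0.62 and -0.36. So did 3 of 4 satellite cell markers and the 2 Schwann cell markers tested. There, 2 of 4 endothelial and the 2 erythroid markers tested were positive, as were 47.0% of all genes. DESeq2 called the satellite cell marker VCAM1 lower in ULU vs control. There, DESeq2 called 279 (compared diets) and 385 (all libraries) genes lower over all genes. The leukocyte marker LYZ was at 0 in all libraries. The deviations of INSIG1 and of the adipocyte gene ADIPOQ from their diet means had a correlation of -0.29 over 17 libraries.

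**Figure D3:**
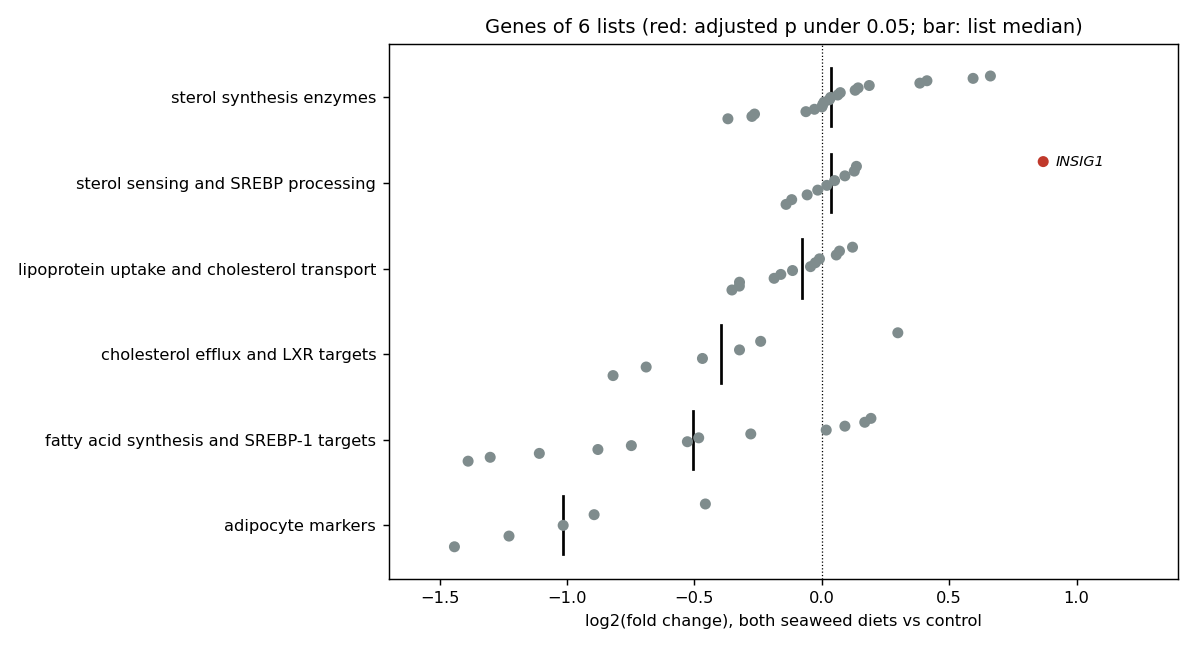
Log2(fold change) of each tested gene in the mean of both seaweed diets vs control, by list, with the list median as a bar. Among the 6 lists shown, INSIG1 at 0.87 is the gene that passed in edgeR, and the fatty acid and adipocyte lists have medians of -0.51 and -1.02.

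Within diets, most of the 8 genes moved together from piglet to piglet. For this, the log2 CPM of each gene, with a prior count of 2, was taken as its deviation from the mean of its diet, so that differences between diets played no part. These correlations are over 17 libraries of 1 tissue that share depth and scaling, and are given as a description. HMGCS1 followed the mean of the other 7 genes most closely, with r = 0.83, and INSIG1 (0.72), LSS (0.68), SREBF2 (0.64) and SQLE (0.61) came next. DHCR7 had r = 0.42, IDI1 0.27 and FDFT1 0.0958. SREBF2 thus varied with the mean of the other 7 genes, though not necessarily with each enzyme, although its own range was narrow.

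The mean deviation of the 8 genes, in SD units, was highest in UL piglet 31, at 1.21, and next in ULU piglet 42, at 1.03, and control piglet 24, at 0.82. It was lowest in control piglet 22, at -0.90, and ULU piglet 43, at -0.81. As deviations were taken from the diet means, every diet holds values above and below 0 by construction. INSIG1 had r = 0.88 with HMGCS1 and 0.66 with SQLE. In UL piglet 31, INSIG1, HMGCS1 and SQLE were each at the highest level of their diet.

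Among all other tested genes, those most like the mean of the 8 were SC5D with r = 0.94, CYP51A1 with 0.89 and HSD17B12 with 0.85. SC5D and CYP51A1 encode a desaturase and a demethylase of the late sterol pathway, and HSD17B12 encodes a ketoacyl-CoA reductase of fatty acid elongation. The median over all other tested genes was -0.0093 and the 99th percentile 0.60. Of the 13 listed sterol synthesis enzymes that are not among the 8, 4 lay above that percentile, SC5D and CYP51A1 and also MSMO1 at 0.77 and ACAT2 at 0.73. Of 12 genes of lipoprotein uptake and transport, 2 lay above it, the higher of them the sterol carrier gene STARD4 at 0.80. None of the 12 fatty acid genes and none of the 5 adipocyte markers did, and SREBF1, the gene of SREBP1, had r = -0.32.

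**Figure D4:**
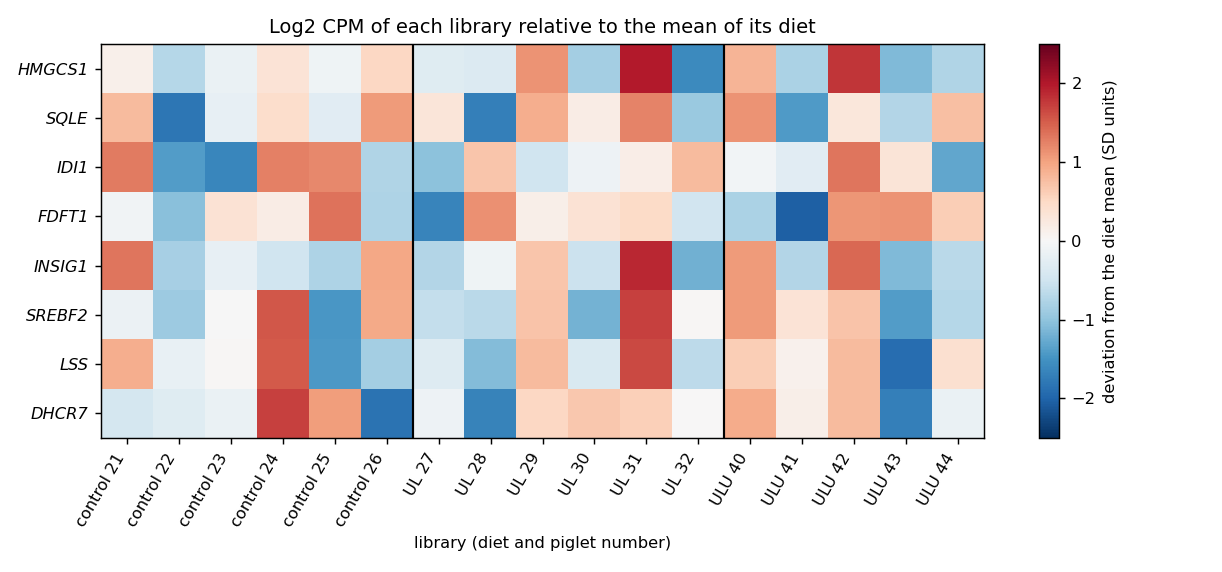
Deviation of each library from the mean of its diet in log2 CPM, in SD units, for the 8 genes (rows) in 17 libraries (columns, black lines between diets). Red is above and blue below the diet mean, and UL piglet 31 and ULU piglet 42 are red in nearly all rows.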

How the data were processed

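Longissimus RNA of 17 piglets was sequenced in single reads (75 nt). Reads were trimmed (fastp), mapped (HISAT2) and counted per gene (featureCounts) by the authors, and the deposited counts are not normalised. The header of the deposited counts names featureCounts 2.0.1 and Ensembl release 104 of Sscrofa11.1, whereas the submitters' processing notes name Subread 1.5.1. The deposited mean over libraries, a column of another kind, was used only as a check.

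Genes were named from a table of Ensembl symbols, which held 15029 of the 31908 genes, and 11 of 106 listed genes stayed unnamed. Counts were tested in edgeR 4.0.16 under R 4.3.3 with TMM factors, its filter on low counts and the quasi-likelihood F test, in 1 model of all 17 libraries, with contrasts between diets. P-values were two-sided and Benjamini-Hochberg adjusted over 14203 genes, with a threshold of 0.05, and a DEG also differed by at least 1 on the log2 scale, up or down. The standard error was the log2(fold change) divided by the square root of F. As 1 library stands for 1 piglet, p-values measure the spread between piglets. Library totals of 16137365 to 26546810 counts limit the precision, and errors cover counting and piglets together. DESeq2 1.42.0, other scaling and filters, and leaving out each library were the alternatives, and the scripts were tested on simulated counts. Tables were handled in pandas 2.3.3 under Python 3.11.15.

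The 8 genes and all lists were chosen with earlier results of these data known. Named genes are the 8, listed genes that passed or had the smallest p of their list, and the 3 genes most like the mean of the 8. HSD17B7, INSIG2, SCAP, MSMO1, ACAT2, STARD4, SREBF1, ADIPOQ and CTSB were named after their values had been seen. Sequencing of 6 piglets on each diet is stated in the methods, and the ULU group held 5 libraries here. Some genes of the planned lists are not reported here and were left out of the list counts. Proteins were not analysed here.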

Additional observations from a re-analysis of the deposited data

How the results depend on the processing

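No paired analysis was possible because the library numbers are those of single piglets and no number occurs in more than 1 diet. Scaling and filters moved no count of calls among the 8 genes, and the choice of tool, of libraries in the fit and of single libraries did (the cause was not tested). By DESeq2 on the compared diets, 1 of the 8 genes passed against control on UL and 1 in ULU vs UL, with 11 and 4 DEGs over all genes. By adjusted p alone that fit called 81 genes higher and 68 lower in UL vs control, and 215 and 29 in ULU vs UL. By DESeq2 on all libraries, 2 passed in ULU vs control, 1 in ULU vs UL and 2 in the mean of both diets, with 12 (UL vs control) and 115 DEGs (ULU vs control), and 5 in ULU vs UL and 36 in the mean of both. By adjusted p alone that fit called 651 genes higher and 385 lower in ULU vs control, and 136 and 29 in ULU vs UL. In the mean of both diets it called 378 genes higher and 283 lower. By edgeR on the compared diets, 0 passed in ULU vs control, with 27 DEGs, and 1 gene was a DEG in ULU vs UL. DESeq2 gave 4 of the 8 genes no adjusted p in ULU vs UL on the compared diets, and 3 on all libraries.

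With 1 library left out, between 0 and 2 of the 8 passed in ULU vs control, with 0 to 1 as DEGs and 30 to 121 DEGs over all genes, lowest without control piglet 22 or ULU piglet 43 and highest without control piglet 25. In the mean of both diets 0 to 1 passed, with 8 to 52 DEGs, and DEGs numbered 0 to 2 for UL against control and 1 to 3 for ULU vs UL. In ULU vs control, TNNT3 passed in 11 of 17 such fits, all but those without control piglets 22, 23 or 26 or ULU piglets 40, 41 or 43 (edgeR adjusted p up to 0.0652). MYH2 passed in 8 of 17, lost without control piglets 22, 23, 24 or 26, UL piglet 29 or ULU piglets 40, 41, 43 or 44 (up to 0.0851). TNNT3 in the mean of both diets passed in 3 of 17, those without control piglets 21 or 25 or ULU piglet 42 (otherwise up to 0.111). Without a filter on low counts, TNNT3 and MYH2 lost their calls (edgeR adjusted p = 0.0536 and 0.126 in ULU vs control, and 0.0935 for TNNT3 in the mean of both diets). TNNT3 and MYH2 also lost them with edgeR on control and ULU alone (0.0752 and 0.0944).

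Signs changed only for 7 values near 0, in 35 fits. SREBF2 in UL vs control was 0.00188 with upper-quartile factors. IDI1 in ULU vs control was -0.000762 with edgeR on the compared diets, -0.0129 with upper-quartile factors and -0.00288 with the 1 CPM filter. With 1 library left out, the log2(fold change) in UL vs control was between -0.151 and 0.0283 for HMGCS1, -0.0603 and 0.0389 for SREBF2, and -0.281 and 0.0745 for DHCR7. That of IDI1 was between -0.0936 and 0.0818 in ULU vs control and between -0.140 and 0.00703 in the mean of both diets, and that of DHCR7 in the latter between -0.134 and 0.218. In ULU vs UL the range was -0.0566 to 0.200 for LSS.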
